A study of Mus musculus with 4 samples.

Results

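A set of 10 genes of the cytosolic heat shock response were followed in cultured mouse hepatocytes that lacked dynamin-related protein 1 (Drp1) and in hepatocytes of control mice, each without and with palmitate. They were Hspa1a, Hspa1b, Hsph1, Dnajb1, Hspb1, Hsp90aa1, Bag3 and Hspb8, which are known to be inducible by heat, and Hspa8 and Hsf1, which are known to be expressed constitutively. Members were taken by gene name from the probe annotation of the arrays, which gave 17 probes for the 10 genes, out of 20529 genes with at least 1 probe well above background. Of the 17 probes, 16 were well above background on all 4 arrays, and the remaining one, a dim Hsp90aa1 probe, on none. Of each gene, the probe with the brightest mean represented the gene, so that all 10 members were measured on every array.

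The control animals carried loxP-flanked Drp1 alleles (Drp1 flox/flox), and their hepatocytes are labelled wild-type in both control samples, the palmitate-treated one also as Drp1flox. The Drp1LiKO littermates carried in addition a Cre recombinase transgene under the albumin promoter, which acts in hepatocytes. All mice were male and on the C57BL/6 strain, and their ages are not given for these cultures in the sources used here. Cells were plated after collagenase perfusion of the liver and collected 24 h after seeding, and how long the palmitate samples had been exposed is not given for these arrays in the sources used here. The 4 groups were untreated control, untreated Drp1LiKO, control with 200 μM palmitate, a saturated fatty acid, and Drp1LiKO with 200 μM palmitate. Each group was 1 array of 1 RNA sample, so no spread between cultures or animals exists and no test between groups was made. The label of the untreated control array says that its raw data were also deposited with another series. Both palmitate arrays lay on 1 slide and both untreated arrays on another, so palmitate and slide cannot be told apart, whereas the genotypes were compared within a slide. Dnm1l, which encodes Drp1, had log2 levels (intensity minus the 75th percentile of the array) of 2.42 in control, 1.07 in Drp1LiKO, 2.43 in control with palmitate and 1.01 in Drp1LiKO with palmitate, lower on both knockout arrays as their labels say.

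Heat shock proteins are chaperones that hold or refold other proteins. In resting cells the transcription factor HSF1, encoded by Hsf1, is kept inactive by binding to chaperones. When unfolded proteins occupy those chaperones, HSF1 forms trimers that bind heat shock elements, inverted repeats of the letters GAA, before the genes it induces. Among these, Hspa1a and Hspa1b encode the stress-inducible HSP70, Hsph1 an HSP110 that exchanges the nucleotide of HSP70, Dnajb1 an HSP40 that hands substrates to HSP70, Bag3 a co-chaperone that couples HSP70 to autophagy, Hspb1 and Hspb8 small heat shock proteins, and Hsp90aa1 the inducible cytosolic HSP90. Hspa8 encodes HSC70, the HSP70 that cells make without stress.

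With palmitate, only Hspa1a and Hspa1b of the 10 genes were at least 2-fold higher, and they were so in both genotypes. Hspa1a was higher by 4.80 on the log2 scale (27.9-fold) in control and by 3.83 (14.2-fold) in Drp1LiKO hepatocytes. Hspa1b was higher by 3.16 (8.93-fold) and by 3.09 (8.52-fold). The other 8 members differed by −0.30 to 0.58, including the 6 other heat-inducible members and HSC70. Without palmitate, Hspa1a was 1.14 higher in Drp1LiKO than in control hepatocytes, and no other member differed by 2-fold between the genotypes.

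The sequences before the transcription starts of Hspa1a and Hspa1b are shown because these neighbouring genes on chromosome 17 were the pair that differed with palmitate. That of Hspb1 is shown because it holds the same kind of letters before a gene whose level differed little. Each sequence is the 250 bases before the start in the RefSeq promoter table (build GRCm38.p6), 5′ to 3′ on the strand of the gene, and capitals mark every GAANNTTC or TTCNNGAA, where N is any base.

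Hspa1a, chr17:34972157-34972406, minus strand: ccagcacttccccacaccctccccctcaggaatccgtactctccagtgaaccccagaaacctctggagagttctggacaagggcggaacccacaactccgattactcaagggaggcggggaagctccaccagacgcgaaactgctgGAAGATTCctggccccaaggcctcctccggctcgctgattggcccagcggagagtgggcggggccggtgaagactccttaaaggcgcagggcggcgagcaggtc

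Hspa1b, chr17:34959239-34959488, minus strand: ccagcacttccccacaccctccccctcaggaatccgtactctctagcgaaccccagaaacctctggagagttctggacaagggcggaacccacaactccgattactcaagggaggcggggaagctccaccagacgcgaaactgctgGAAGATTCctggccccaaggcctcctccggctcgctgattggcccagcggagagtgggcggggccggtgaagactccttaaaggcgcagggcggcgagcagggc

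Hspb1, chr5:135887669-135887918, plus strand: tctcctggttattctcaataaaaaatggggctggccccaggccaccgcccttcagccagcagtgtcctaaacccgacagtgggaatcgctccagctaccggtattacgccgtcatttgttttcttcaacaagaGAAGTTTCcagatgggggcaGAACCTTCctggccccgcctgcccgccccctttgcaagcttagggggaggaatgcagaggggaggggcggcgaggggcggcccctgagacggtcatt

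The 250 bases of Hspa1a and Hspa1b differed at 3 positions and were the same at 247 (98.8%). Both held 1 GAANNTTC, from 104 to 97 bases before the start, whereas Hspb1 held it at 117 to 110 and at 97 to 90 bases before the start. The table gave 9 windows for 7 members. Hsph1 held 1 TTCNNGAA in each of its 2 overlapping windows, and Bag3, Dnajb1 and Hspb8 held neither pattern. In all, 5 of the 9 windows, from 4 of the 7 members, had such a match, against 4218 of the 32851 promoters of the table (12.8%). These windows are not independent, as those of Hspa1a and Hspa1b are nearly the same and those of Hsph1 overlap. The shares were not tested against each other. The longer element of 3 blocks, GAANNTTCNNGAA or TTCNNGAANNTTC, was in 153 promoters (0.466%) and in none of the members within these 250 bases. The 2 Hsph1 windows each held 1 match to it that ends within the 50 bases after the start and may begin before the start. As these windows overlap, both matches may be the same site. Each pair of patterns is its own reverse complement or that of its partner, so both strands were covered, and a match to the longer element is also 2 overlapping matches to the shorter one. No promoter was matched for Hsf1, Hsp90aa1 and Hspa8.

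The Hspa1a probe lies at chr17:35106766-35106825, minus strand, in the mouse build mm9 of the array annotation, and the Hspa1b probe at chr17:35093374-35093405, minus strand. The longest run of bases that both probes shared was 5 of 60, and neither shared more than 7 with any of the 4 Hspa8 probes. The probes lie at different places in their transcripts, so short shared runs do not show that a probe detects 1 gene alone. Whether a probe also matches the transcript of another of these genes was not tested. On the scanner's linear scale, the Hspa1a spot had an intensity of 174 on the control array, 430 on the Drp1LiKO array, 4255 on the control array with palmitate and 5287 on the Drp1LiKO array with palmitate. The Hspa1b spot had intensities of 409, 426, 3193 and 3133 in the same order. Neither spot was saturated or marked as an outlier on any array. The scanner software gave the representative spots of the members an error of 10 to 10.3% of the intensity. This amounts to an SD of 0.20 to 0.21 for a log2 difference of 2 arrays, and is the measurement error meant below. It is a mark of size and not a test. Repeat spots gave less, with a median SD of 0.03 to 0.04 log2 units, or about 0.05 for a difference. Both hold measurement error only and leave out the spread between cultures.

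Levels below are log2 intensities minus the 75th percentile of the array, which was an intensity of 424 to 542. The level of Hspa1a was −1.48 in control, −0.34 in Drp1LiKO, 3.33 in control with palmitate and 3.50 in Drp1LiKO with palmitate. The level of Hspa1b was −0.25, −0.35, 2.91 and 2.74 in the same order. Both genes were thus below the 75th percentile of the array without palmitate and above it with palmitate. The untreated genotypes lay apart for Hspa1a and within measurement error of each other for Hspa1b, and with palmitate both genes differed by less than 0.21 between the genotypes. The study had singled out heat shock protein genes on these same samples, so the size of these differences is not independent evidence.

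**Figure D1:**
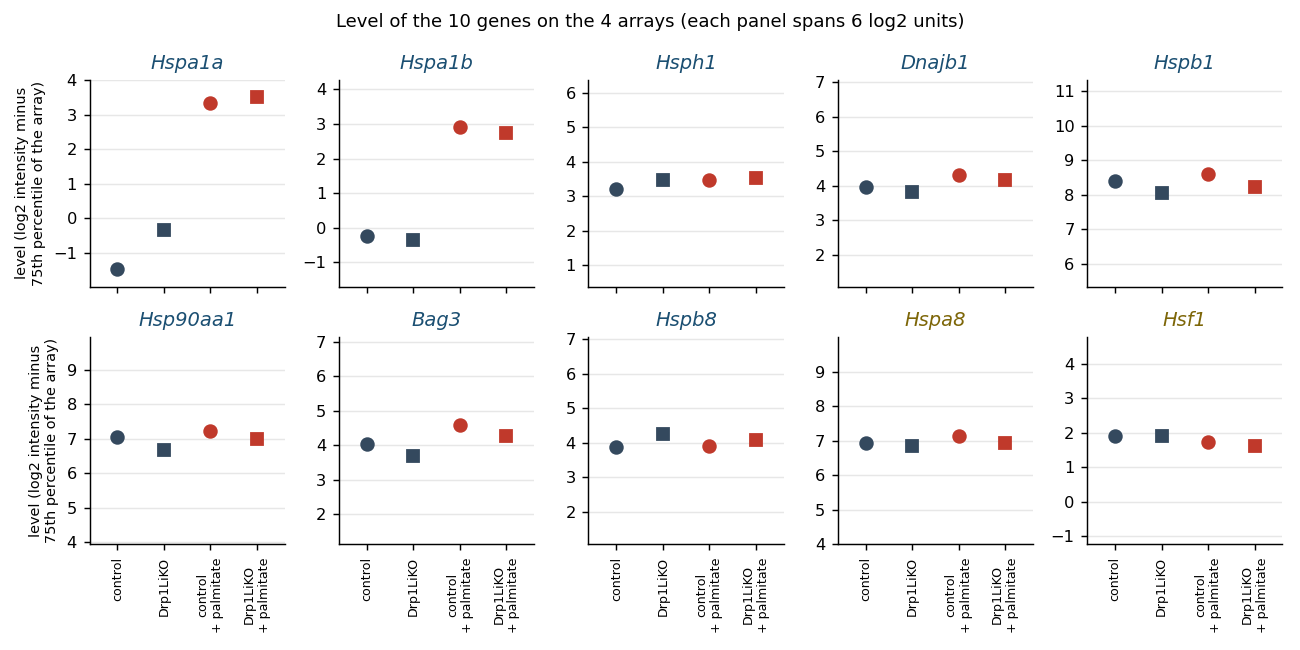
Level of the 10 genes (log2 intensity minus the 75th percentile of the array) on the 4 arrays, 1 point per array, circles for control and squares for Drp1LiKO, dark for untreated and red for palmitate. Every panel spans 6 log2 units, and gene names are blue for heat-inducible and olive for constitutive members. Hspa1a goes from −1.48 and −0.34 to 3.33 and 3.50, and Hspa1b from −0.25 and −0.35 to 2.91 and 2.74, while the other 8 panels are nearly flat.

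Among all 18704 genes measured on at least 1 of both control arrays, 521 (2.79%) were at least 2-fold higher with palmitate and 530 (2.83%) at least 2-fold lower, beside 2 and 0 of the 10 members. In Drp1LiKO hepatocytes these were 769 (3.91%) and 608 (3.09%) of 19680 genes, again beside 2 and 0 members. The median palmitate difference of the 10 members was 0.23 in control and 0.25 in Drp1LiKO, where all genes had medians of 0.01 and 0.00. Without Hspa1a and Hspa1b, the 8 others had medians of 0.20 and 0.12, with 7 and 6 of them above 0. Of all genes, 9636 of 18704 were above 0 in control and 9964 of 19680 in Drp1LiKO. Among the 16565 genes measured on all 4 arrays, the middle 50% had palmitate differences of −0.10 to 0.15 in control and −0.14 to 0.17 in Drp1LiKO.

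**Figure D2:**
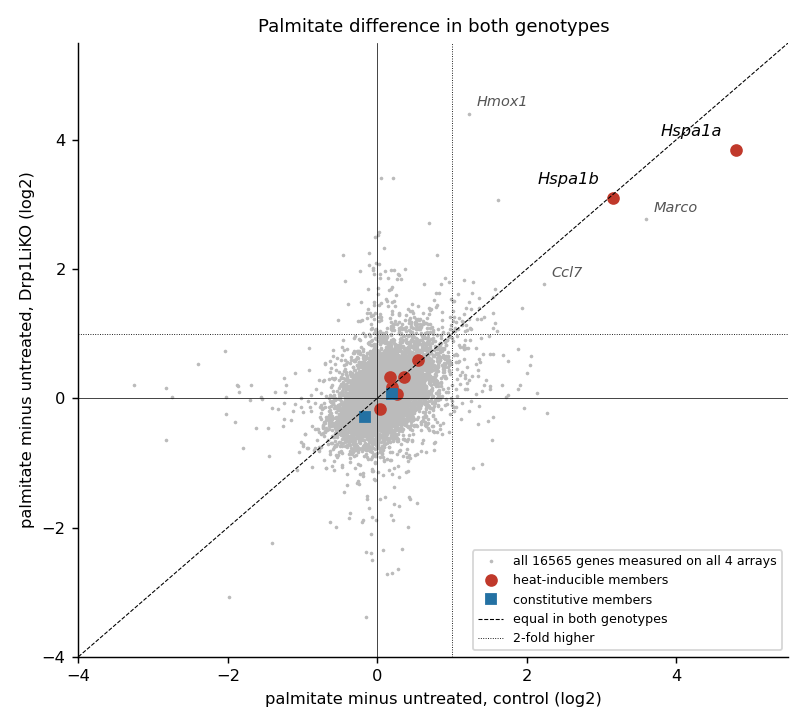
Palmitate minus untreated (log2) in control (x axis) against Drp1LiKO hepatocytes (y axis), with 1 grey point for each of the 16565 genes measured on all 4 arrays, red circles for heat-inducible and blue squares for constitutive members. Dotted lines mark 2-fold higher and the dashed line equal differences. Hspa1a (4.80 and 3.83) and Hspa1b (3.16 and 3.09) stand far to the upper right, and the other 8 members lie within the cloud of all genes.

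Of the HSP70 partners, Bag3 had the next highest palmitate differences. Its level was 4.03 in control, 3.69 in Drp1LiKO, 4.58 in control with palmitate and 4.27 in Drp1LiKO with palmitate. This was 0.55 higher with palmitate in control and 0.58 in Drp1LiKO, above the differences of 95.8% and 94.8% of the genes measured on all 4 arrays. Dnajb1 had levels of 3.95, 3.84, 4.31 and 4.16 in that order, 0.36 higher with palmitate in control and 0.33 in Drp1LiKO. For Bag3 and Dnajb1 both palmitate arrays were above both untreated arrays, and every palmitate difference was larger than the measurement error of 0.20 to 0.21.

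Hsph1, the HSP110 that assists HSP70, had levels of 3.21 in control, 3.47 in Drp1LiKO, 3.47 in control with palmitate and 3.54 in Drp1LiKO with palmitate. The untreated control array was the lowest, and the palmitate difference was 0.26 in control and 0.06 in Drp1LiKO. A second Hsph1 probe gave 0.27 and −0.11, and another, dim one gave 0.40 and −0.28. In control all 3 probes were thus higher with palmitate, whereas in Drp1LiKO they disagreed in sign.

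The small heat shock proteins showed no difference near 2-fold. The level of Hspb1 was 8.40 in control, 8.06 in Drp1LiKO, 8.60 in control with palmitate and 8.23 in Drp1LiKO with palmitate. Its palmitate differences of 0.20 and 0.17 did not exceed the measurement error. The level of Hspb8, the partner of Bag3 in selective autophagy, was 3.87, 4.24, 3.91 and 4.08 in the same order. Its palmitate differences of 0.04 in control and −0.16 in Drp1LiKO were within the measurement error.

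Hsp90aa1, the inducible HSP90, had levels of 7.04 in control, 6.66 in Drp1LiKO, 7.22 in control with palmitate and 6.99 in Drp1LiKO with palmitate. Palmitate differences were 0.17 in control and 0.33 in Drp1LiKO, and a second bright probe gave 0.22 and 0.38. Hsp90ab1, which encodes the constitutive HSP90, differed by 0.07 and 0.01. The palmitate difference of the inducible HSP90 was thus 0.10 and 0.32 above that of the constitutive one.

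Neither constitutive member differed by 2-fold with palmitate. The level of Hspa8 was 6.94 in control, 6.86 in Drp1LiKO, 7.14 in control with palmitate and 6.93 in Drp1LiKO with palmitate. Its 4 probes gave palmitate differences of 0.11 to 0.25 in control and 0.04 to 0.12 in Drp1LiKO. The palmitate difference of Hspa1a was larger than that of Hspa8 by 4.61 in control and by 3.76 in Drp1LiKO, and that of Hspa1b by 2.97 and 3.02. Hsf1, which encodes the regulator of the response, had levels of 1.89, 1.91, 1.73 and 1.61 in the same order, with palmitate differences of −0.17, within the measurement error, and −0.30, beyond it. As a group, the 8 inducible members had a median palmitate difference of 0.31 in control and 0.33 in Drp1LiKO, against 0.01 and −0.11 for the 2 constitutive ones, of which Hspa8 was above 0 and Hsf1 below it. Without Hspa1a and Hspa1b, the 6 other inducible members had medians of 0.23 and 0.25, and 6 and 5 of them were above 0.

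The difference between the genotypes in the untreated state was at least 2-fold for Hspa1a alone. It was 2.20-fold higher in Drp1LiKO, and against the median of each array instead of the 75th percentile the difference was 0.96, below 2-fold. Among all 19805 genes measured on at least 1 of both arrays, 1746 (8.82%) were at least 2-fold higher in Drp1LiKO and 1101 (5.56%) at least 2-fold lower, so 1 of 10 members is near that share. With palmitate, none of the 10 was 2-fold apart, beside 1361 higher (7.23%) and 794 lower (4.22%) of 18822 genes. The genotype difference of Hspa1a was then 0.17, and its palmitate response in Drp1LiKO minus that in control was −0.97. With 1 array a group, that difference of responses was not tested. For Hspa1b the responses differed by −0.07, and for the 8 other members by −0.20 to 0.15.

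Both genotype comparisons gave like values for several members. Drp1LiKO minus control was −0.34 untreated and −0.37 with palmitate for Hspb1, −0.34 and −0.31 for Bag3, and −0.38 and −0.23 for Hsp90aa1, so these were lower in Drp1LiKO. Hspb8 was higher by 0.38 and 0.18. Hsph1 differed by 0.26 and 0.06, and the second value turned to −0.09 with arrays scaled to their median. Dnajb1 differed by −0.12 and −0.15, Hspa8 by −0.08 and −0.20, and Hsf1 by 0.02 and −0.11. The median genotype difference of the 10 members was −0.09 untreated and −0.16 with palmitate, where all genes had medians of −0.02 and −0.03. The middle 50% of the genes measured on all 4 arrays spanned −0.26 to 0.21 untreated. Hspb1, Bag3 and Hsp90aa1 lay below that span, and Hspb8 and Hsph1 above it. Hsp90aa1, the lowest member untreated, was above 16.5% of these genes, and Hspb8 was above 84.2%. With palmitate the middle 50% spanned −0.23 to 0.17, and Hspb1, the lowest member there, was above 13.8%.

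**Figure D3:**
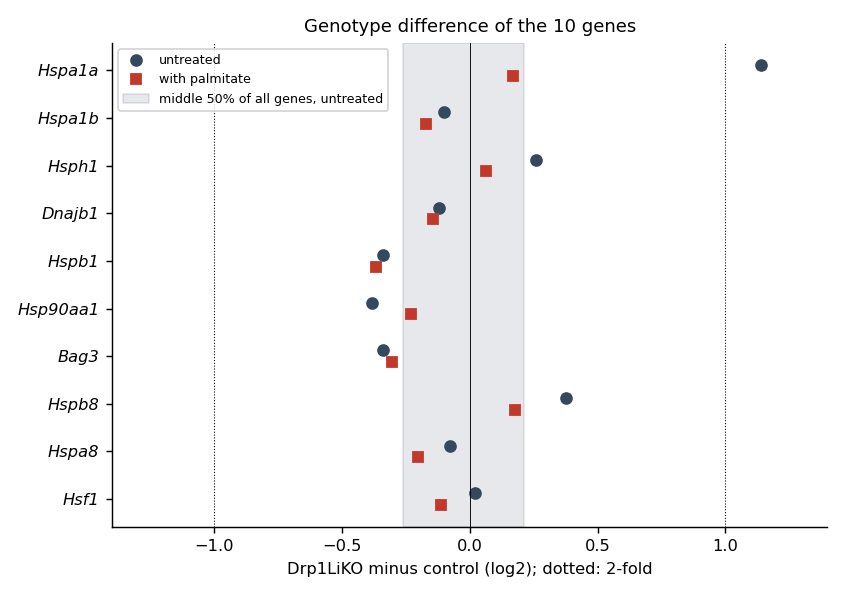
Drp1LiKO minus control (log2) of the 10 genes, dark circles untreated and red squares with palmitate, 1 array per group. The grey band holds the middle 50% of all genes measured on all 4 arrays, untreated (−0.26 to 0.21), and dotted lines mark 2-fold. Hspa1a untreated (1.14) is the one value past 2-fold, and is 0.96 when arrays are scaled to their median.

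The brightest probe of Gapdh, a glycolytic enzyme often used as a reference, differed by −0.11 to −0.03 in the 4 comparisons. All 10 hepatocyte markers were well above background on every array, with summed levels (each gene's intensity over the 75th percentile of the array) of 1236 to 1316. These sums do not show single genes. Between the genotypes, 2 of the 10 were at least 2-fold higher in Drp1LiKO untreated and 2 with palmitate, and none was 2-fold lower. None was 2-fold apart with palmitate in either genotype, but 7 of 10 were below 0 in control and 8 of 10 in Drp1LiKO. Of 12 macrophage markers, 9, 11, 6 and 10 were well above background in control, Drp1LiKO, control with palmitate and Drp1LiKO with palmitate. Over the 11 measured anywhere, the summed levels were 9.69, 37.1, 12.2 and 34.6 in that order. Stellate cell markers, measured for 7 of 8, had 1.07, 11.0, 1.21 and 13.2, and endothelial markers, measured for 8 of 8, had 1.41, 4.07, 1.43 and 2.83. Summed levels were 1.37 to 2.01 for neutrophil and 41.8 to 60.5 for cholangiocyte markers, and in these lists Timd4, Des, S100a9, Mpo and Epcam were well above background nowhere. The summed levels of macrophage, stellate and endothelial markers were thus higher in Drp1LiKO, in the direction of the untreated Hspa1a difference. With palmitate, 2 of 9 macrophage markers were at least 2-fold higher in control and 4 lower, and 1 of 11 was higher in Drp1LiKO and 6 lower. Of the endothelial markers, 1 of 7 was at least 2-fold higher in control, and 4 of 8 were lower in Drp1LiKO. The part of these cells in the differences of Hspa1a and Hspa1b was not tested. In such bulk RNA, fewer cells of a type and less RNA per cell cannot be told apart.

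Other chaperone genes were read from 5 lists, named after their main content. Some listed genes encode no chaperone, such as Rgs2 and Cdkn1a in the heat-inducible list and the proteases Lonp1 and Clpp in the mitochondrial one. Medians are those of all measured genes of a list. Of 23 other genes known to be inducible by heat, 21 were measured on all 4 arrays, and none of these differed by 2-fold with palmitate in control. The values ran from −0.18 to 0.30 with a median of 0.03. They include Dnaja1, an HSP40 (0.17), Hspa4, an HSP110 relative (0.05), Hspd1 and Hspe1, the mitochondrial chaperonin pair (−0.11 and 0.05), and Stip1, which links HSP70 to HSP90 (0.04). In Drp1LiKO, 22 were measured, with a median of 0.03, and 1 was at least 2-fold lower. This was Rgs2, a regulator of G-protein signalling (−1.86), which in control was well above background without palmitate and not with it. The testis-type HSP70 gene Hspa1l was well above background on no array.

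Constitutive cytosolic chaperones and co-chaperones, 27 genes such as the subunits of the chaperonin TRiC, had median palmitate differences of −0.02 in control and 0.01 in Drp1LiKO. Hspa2, another HSP70, differed by 0.08 and 0.18. In control the 1 gene past 2-fold was Bag4, which was well above background without palmitate and not with it, at least 2.05-fold lower. In Drp1LiKO the 1 gene was Dnajc7, a co-chaperone of HSP70 and HSP90, higher by 2.52. Its levels were 3.94 in control, 1.5 in Drp1LiKO, 3.95 in control with palmitate and 4.02 in Drp1LiKO with palmitate, so the untreated Drp1LiKO array stood alone as the low one. A second Dnajc7 probe showed the same, with 1.42, −0.84, 1.47 and 1.5. A pair of dimmer probes of Bag6, a chaperone of newly made proteins, were higher on that array alone, by 1.94 and 2.48 over control, while the brightest Bag6 probe differed by 0.22.

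Among probes well above background on both arrays compared, dimmer probes of 3 further genes passed 2-fold where the representative probe did not. Such a probe of Hspa4 differed by −1.59 between the untreated genotypes, where the brightest probe gave 0.07. One of Dnaja1 differed by 1.45 with palmitate in control and by −2.34 between the genotypes with palmitate, where the brightest gave 0.17 and −0.25. One of Hspa14 differed by −1.30 with palmitate in Drp1LiKO and −1.03 between the genotypes with palmitate, where the brightest gave 0.04 and −0.45. For these genes the probes disagreed, and the dim values were not read as differences of the gene. Dim probes of Hspa4 and Cdkn1a also passed 2-fold in a comparison in which 1 array was not well above background.

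Of 11 other heat shock factors and small heat shock proteins, 9 were measured in control and 8 in Drp1LiKO. Median palmitate differences were −0.09 and −0.05. Hspb7 was the 1 gene of the list past 2-fold. Its brighter probe was well above background in untreated control cells and nowhere else. There it was at least 6.89-fold above control with palmitate and at least 10.5-fold above untreated Drp1LiKO. A second Hspb7 probe was well above background on no array, untreated control included, so these bounds rest on 1 probe on 1 array. Such bounds set the bright value against the lowest probe well above background on the dim array, or the dim probe itself where that was higher. The 9 genes of the mitochondrial list had medians of 0.02 and −0.06, and Hspa9, the mitochondrial HSP70, differed by −0.19 and 0.15.

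Of the 5 lists, the ER chaperones had the highest median palmitate differences. All 15 were measured, with medians of 0.15 in control and 0.26 in Drp1LiKO, and 13 and 14 of them were above 0. This was beside 9636 of 18704 and 9964 of 19680 among all genes. None was 2-fold higher, and the highest were Dnajb9, an ER HSP40, in control (0.79) and Sdf2l1, an ER co-chaperone, in Drp1LiKO (0.61). Hspa5, which encodes the ER HSP70 BiP, differed by 0.12 in control and 0.42 in Drp1LiKO with its brightest probe, and by 0.12 to 0.18 and −0.34 to −0.24 with its others.

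**Figure D4:**
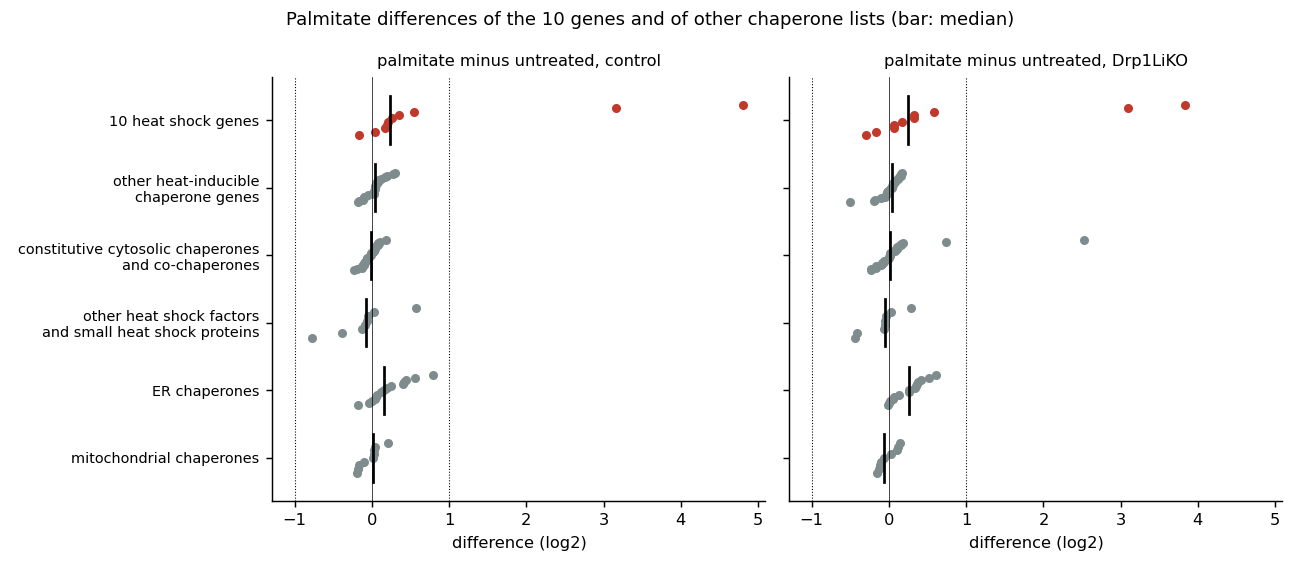
Palmitate minus untreated (log2) for the 10 heat shock genes (red) and 5 lists of other chaperone genes (grey), control on the left and Drp1LiKO on the right, 1 point per gene measured on all 4 arrays, with black bars at medians and dotted lines at 2-fold. In control no point outside Hspa1a and Hspa1b lies beyond 2-fold, and in Drp1LiKO only Dnajc7 (2.52) does besides them.

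Between the genotypes, 2 of the 22 measured genes of the heat-inducible list were at least 2-fold higher in Drp1LiKO, untreated and with palmitate. This is near the share of all genes, 8.82% untreated and 7.23% with palmitate. Serpinh1, the collagen chaperone HSP47 of the ER, was higher by 2.29 untreated and 2.33 with palmitate, with levels of −2.13, 0.16, −2.02 and 0.31. Stellate cell markers, which rest on collagen genes among others, were higher on the same arrays, and their part in the Serpinh1 value was not tested. Rgs2 was higher by 3.17 untreated and at least 3.73-fold with palmitate, where it was not well above background in control. In the constitutive list Dnajc7 differed by −2.43 untreated and by 0.08 with palmitate, and Hspa2 by −0.77 and −0.67. Genotype differences of the ER chaperones had medians of 0.29 and 0.27, and those of the mitochondrial ones 0.06 and 0.09, with no gene 2-fold apart.

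The genes with profiles most like that of Hspa1a were searched over the 4 arrays, as the root mean square difference of log2 values after each gene was centred on its own mean. Hspa1b had a distance of 0.75. Entries named only by a genome position, a LOC number or a transcript or clone accession were left out of the ranking, though some lie as near. Among the other genes outside the members, the nearest was Marco, a scavenger receptor of macrophages (0.89). Next were Ccl7 and Cxcl3, which encode chemokines (1.17 and 1.26), 1700030M09Rik (1.47) and AW495160 (1.5). Marco had levels of −3.26 in control, −0.82 in Drp1LiKO, 0.33 in control with palmitate and 1.95 in Drp1LiKO with palmitate, and so was higher in Drp1LiKO with palmitate too, by 1.61, where Hspa1a differed by 0.17. Of all genes measured on all 4 arrays, 46 were at least 2-fold higher with palmitate in both genotypes, and Hspa1a and Hspa1b were the members among them. With 4 arrays, a likeness of profile and the slide that the palmitate arrays share cannot be told apart.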

How the data were processed

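The authors hybridised Cy3-labelled RNA of 4 samples, amplified with a low-input kit, to Agilent mouse arrays, 1 array per sample. The deposited scanner tables hold a processed intensity per spot, corrected for background by Agilent Feature Extraction (10.7.1.1 per the file headers, 9.5.1.1 in the submitters' processing notes). The deposited value table holds linear intensities whose sorted values are the same on the 4 arrays within 0.002 log2 units, as after quantile normalization (median 18.1 each), and was used as an alternative. How it was made is not given in the sources used here. RNA extraction is given as TRIzol with a column kit in the labels and as another column kit in the methods.

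From the 59305 non-control spots of each array, outlier spots were left out, repeat spots of a probe averaged, intensities log2 transformed and the 75th percentile of the array subtracted (Python 3.11.15, pandas 2.3.3). Of each array, 44.7 to 51.1% of probes were well above background, which together with the 4 arrays limits the precision. The brightest probe represented a gene, out of those above background by the scanner's flag on any array. A log2 difference was counted from 2-fold, where either array of a comparison passed that flag. An additive limma fit over 4 arrays would keep 1 residual degree of freedom, taken up by the interaction, and was not used. The fold counting was tested on simulated data. Named were all members, Dnm1l and Gapdh, 5 related chaperones and list genes past 2-fold with a probe measured on both arrays. The 5 profiles nearest to Hspa1a among genes with a symbol were named too. List members given as examples besides these, Bag4, Hspb7, Cdkn1a, Dnajb9 and Sdf2l1 were chosen after their values were seen, and the promoter pattern of 2 blocks was added after the one of 3 blocks. Members and lists were chosen with earlier results of these data known. Alternatives were other scalings, quantile normalization, normexp correction (limma 3.58.1, offset 50), the deposited table, the mean of all probes, other background filters and 1.5-fold.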

Additional observations from a re-analysis of the deposited data

How the results depend on the processing

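Over 10 alternatives, the count of members at least 2-fold apart stayed at 2 with palmitate in control, 2 with palmitate in Drp1LiKO and 0 between the genotypes with palmitate. Between the untreated genotypes it was 0 instead of 1 with arrays scaled to their median and 0 with normexp background correction, where Hspa1a differed by 0.96 and 0.90. Scaling to the median also moved the median of all genes by −0.18 and −0.16 in the genotype comparisons, and relative to it Hspa1a was unchanged by construction. The palmitate difference of Hspa1a ran from 4.31 to 4.81 in control and from 3.60 to 3.85 in Drp1LiKO, and that of Hspa1b from 2.94 to 3.16 and from 2.88 to 3.11, the lowest each time with normexp correction. Of 400 values of single members, 9 changed sign, all of them at most 0.08 in size. The 400 include the alternatives that changed only the background filter or the fold cut-off, which could not move these values by construction. The medians of the lists of constitutive cytosolic, mitochondrial and other heat-inducible chaperones changed sign under some scalings, those of the ER chaperones and of the other heat shock factors and small heat shock proteins under none. No paired analysis was possible because the labels carry no replicate numbers and each group has 1 array. The additive fit over the 4 arrays was not run. Genes not well above background on an array of a comparison, such as Hspb7 and Rgs2, have only a bound there.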
